A study of Mus musculus with 50 samples.

Results

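The clustered histone genes of the mouse are the 68 genes of the deposited count table, of 48526 in all, whose GRCm38 symbol starts with Hist1h, Hist2h, Hist3h or Hist4h. They were chosen by symbol alone. The Hist1 group on chromosome 13 holds 54 of them, the Hist2 group on chromosome 3 holds 10, the Hist3 group on chromosome 11 holds 3, and Hist4h4 is alone on chromosome 6. By product, 6 encode linker histone H1, 20 H2A, 17 H2B, 12 H3 and 13 H4, and 3 of the 68 are annotated as pseudogenes.

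Histones H2A, H2B, H3 and H4 form the core around which DNA is wound, and H1 binds the linker DNA between cores. Most clustered histone genes are transcribed during S phase, and their mRNAs end in a short stem-loop bound by SLBP instead of a poly(A) tail. Some of these genes can also give polyadenylated transcripts that run past the stem-loop, and the replacement histone genes outside the clusters are polyadenylated and expressed through the cell cycle. The cDNA kit named in the labels primes from poly(A), so the values below describe the polyadenylated part of the histone mRNAs, and how much stem-loop mRNA the cells held was not measured.

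The 50 libraries were made from microglia, the resident macrophages of the brain, sorted by flow cytometry, each from 1 mouse. Every mouse carried loxP sites at both alleles of Hdac1 and Hdac2, the genes of a pair of histone deacetylases, and controls had no Cre, so that deletion and the presence of Cre cannot be told apart. Constitutive knockouts carried CX3CR1-Cre, were untreated, and were taken at birth (P0, 4 controls and 3 knockouts), 2 weeks (14 days, 4 and 2) and 6 weeks (45 days, 4 and 3). Inducible knockouts carried CX3CR1-CreERT2, a form of Cre that needs tamoxifen. They and their controls came from dams injected with 3 mg tamoxifen, together with progesterone, at embryonic day 13. They were taken at embryonic day 16 (E16, 4 and 3), P0 (3 and 4), 2 weeks (4 and 4) and 6 weeks (4 and 4). Cx3cr1 drives both forms of Cre and is itself a microglial gene. Its level was below every control in every knockout library, for example 64.1 to 359 CPM (counts per 1000000 counts of the library) against 2814 to 3769 CPM in constitutive P0 controls and 3085 to 4175 against 6394 to 8448 CPM in inducible animals at 6 weeks.

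Library totals ran from 11050277 to 29651179 counts. Some libraries stood apart. The library labelled constitutive knockout 68 (P0) held Hdac1 at 35.7 CPM, against 11.4 to 13.6 in its controls, and Hdac2 at 190.5 against 126 to 164. The library labelled constitutive knockout 380 (6 weeks) held Hdac1 at 92.2 CPM against 13.4 to 16.6, and the one labelled inducible knockout 1 (E16) held Hdac2 at 316 CPM against 133 to 165. In the other constitutive P0 knockouts Hdac2 was near the control range too, at 137 CPM in knockout 76 and 124 CPM in knockout 73, while Hdac1 was below the controls, at 8.86 and 10.3 CPM. No library labelled constitutive knockout at P0 therefore held Hdac2 clearly below its controls, and knockout here is the name in the labels. Constitutive knockout 89 (2 weeks) held Hdac2 at 70.1 CPM, within the 59.8 to 71.3 of its controls. Calls without these libraries are given beside the results. In bulk libraries fewer cells of a type and less RNA per cell cannot be told apart.

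The stem-loop is shown here because, in members whose annotated transcript holds one, the level went with the distance from it to the transcript end. The consensus of the histone stem-loop was searched on the sense strand of the annotated transcripts, as the capitals below with the fourth, the tenth and the thirteenth base left free. It occurs in 47 of 55450 genes, of which 40 are clustered histone genes. The windows below are written as DNA, with the 16-base stem-loop in capitals and 5 bases on either side in lower case.
Hist1h1c: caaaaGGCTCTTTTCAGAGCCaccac
Hist3h2a: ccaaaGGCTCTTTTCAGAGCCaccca
Hist1h2ac: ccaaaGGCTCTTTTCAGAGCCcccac
Hist3h2ba: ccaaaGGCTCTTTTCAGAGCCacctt
Hist1h3e: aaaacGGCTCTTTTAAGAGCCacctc
Hist1h4d: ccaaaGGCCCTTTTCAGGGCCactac
Hist4h4: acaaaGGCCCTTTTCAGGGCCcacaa
Hist1h4i: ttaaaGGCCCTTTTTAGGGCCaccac
Hist2h4: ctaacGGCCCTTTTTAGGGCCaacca
Hist1h3a: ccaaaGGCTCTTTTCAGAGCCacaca
The first 9 belong to members described below. The window of Hist3h2a is also that of Hist1h2be, Hist1h2bg and Hist1h1e. Hist1h3a is an H3 gene whose annotated transcript stops soon after the stem-loop.

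Among the 40 members with a stem-loop in the annotated transcript, those whose transcript runs 100 or more bases past it were the abundant ones. These 20 members had a median level of 7.20 CPM per kilobase of counted exon, 16 of them reached a mean of 1 CPM over the 50 libraries, and together they held 80.01% of all member counts. The 20 members with a shorter end had a median of 0.653 CPM per kilobase, 2 reached 1 CPM, and they held 3.23% of the counts. In the remaining 28 members the motif was not found in the annotated transcript, 4 reached 1 CPM, the median was 0.263 CPM per kilobase and they held 16.76% of the counts. The abundant H2B genes Hist1h2bc and Hist2h2be are among these 28. The polyadenylation signal AATAAA, searched anywhere after the stem-loop, was in 11 of the 20 long transcripts and in 0 of the 20 short ones. The searched stretch was 151 to 4884 bases in the long and 3 to 74 bases in the short transcripts. This contrast is therefore partly set by the split itself, and no conclusion is drawn from it. The counted exons were shorter than the annotated ones for 12 of the 20 long members, and 9 of those 12 still reached 1 CPM, against 7 of the 8 counted over their whole length. The split is a description of these libraries and this annotation.

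**Figure D1:**
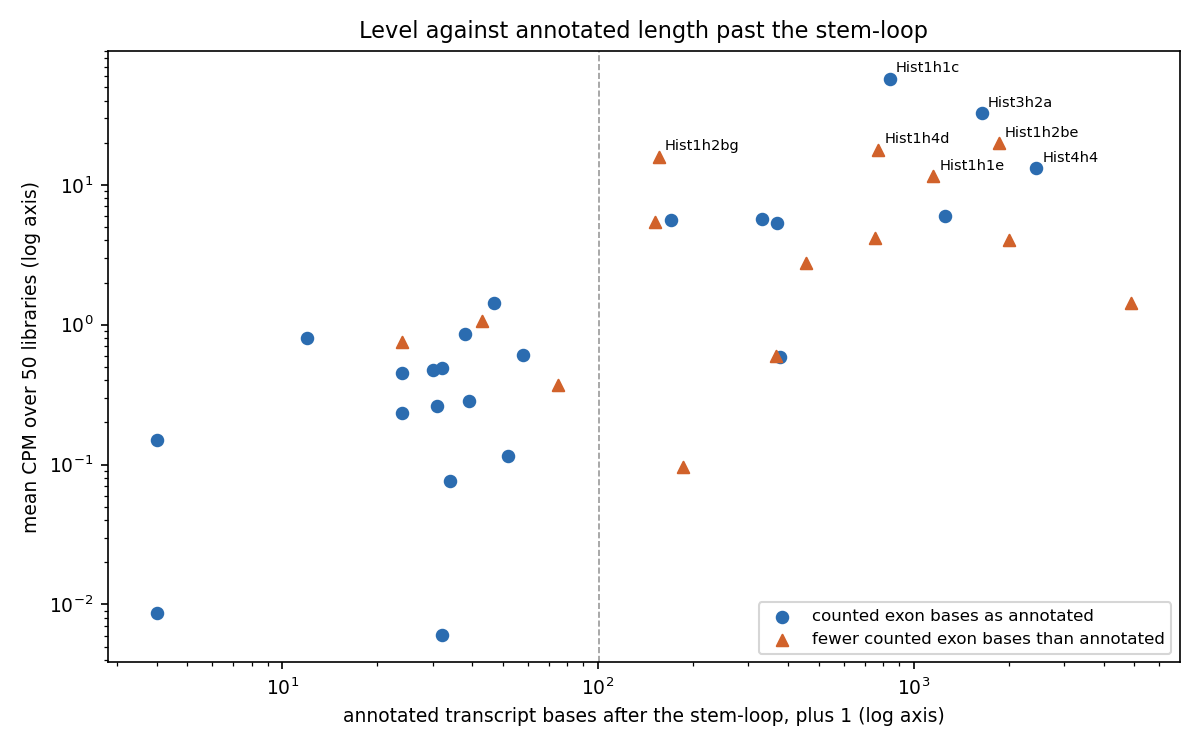
Mean level over 50 libraries (CPM, log axis) of members with a stem-loop against the annotated transcript bases after it (plus 1, log axis); each point is a gene, blue circles were counted over all annotated exon bases and orange triangles over fewer, and the dashed line marks 100 bases. All members above 10 CPM lie to the right of the line, and 2 members to its left exceed 1 CPM; members at 0 counts are not drawn.

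Promoters of 300 bases (250 before and 50 after the start, RefSeq, GRCm38.p6) were available for 60 members. They are shown for 3 members with large changes in the results below, chosen after their values were seen: Hist1h2ac and Hist1h2bg, which hold the common motifs, and Hist4h4, which holds none. Capitals mark the motifs found on either strand, and the motifs do not overlap in these windows. Hist1h2ac lies at chr13:23683910-23684209, minus strand, Hist1h2bg at chr13:23571150-23571449, plus strand, and Hist4h4 at chr6:136804382-136804681, minus strand.
Hist1h2ac: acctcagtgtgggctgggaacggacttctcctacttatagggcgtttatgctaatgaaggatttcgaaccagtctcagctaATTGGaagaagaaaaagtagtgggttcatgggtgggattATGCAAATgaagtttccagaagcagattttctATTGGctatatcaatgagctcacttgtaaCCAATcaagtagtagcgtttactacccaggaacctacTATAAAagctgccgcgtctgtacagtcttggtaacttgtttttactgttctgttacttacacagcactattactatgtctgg
Hist1h2bg: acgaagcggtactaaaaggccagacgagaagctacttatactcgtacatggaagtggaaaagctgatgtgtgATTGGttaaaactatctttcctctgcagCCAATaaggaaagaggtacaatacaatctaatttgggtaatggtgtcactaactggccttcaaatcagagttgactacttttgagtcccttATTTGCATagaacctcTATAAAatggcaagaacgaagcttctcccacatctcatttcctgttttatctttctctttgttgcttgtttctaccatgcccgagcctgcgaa
Hist4h4: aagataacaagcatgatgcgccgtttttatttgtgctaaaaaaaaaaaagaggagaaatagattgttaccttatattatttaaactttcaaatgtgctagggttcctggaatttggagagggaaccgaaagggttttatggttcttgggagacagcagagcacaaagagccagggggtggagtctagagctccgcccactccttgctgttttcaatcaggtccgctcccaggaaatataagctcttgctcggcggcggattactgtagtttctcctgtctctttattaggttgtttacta
In Hist1h2bg the octamer ATTTGCAT starts 59 bases and TATAAA 43 bases before the start site. In Hist1h2ac TATAAA starts 32 bases before it, CCAAT 69 bases before it, and the octamer lies on the other strand 130 bases before it.

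The octamer ATTTGCAT, known from H2B promoters as the site of the factor OCT1, was in 21.7% of the 60 member promoters and in 1.97% of 27025 genes. It was in 38.9% of H2A and 42.9% of H2B members and in none of the 28 promoters of H1, H3 and H4 members. The windows of H2A and H2B genes that start back to back overlap, and a site in the overlap counts for both. Hist1h2ae and Hist1h2bg share 1 octamer in this way, as do Hist1h2aa and Hist1h2ba, and Hist1h2ah and Hist1h2bk. The H2A and H2B shares are thus not independent. CCAAT was in 85% of members against 41.1% of genes, in every H1, H2A, H2B and H3 member and in 25% of H4 members. TATAAA was in 58.3% against 15.7%, and TTTCCCGC, a form of the E2F site, in 1.67% against 1.24%. A match is a run of letters and not a measured binding site. The members Hist1h2bc, Hist2h2be, Hist2h4, Hist1h2al, Hist1h3a, Hist1h3f, Hist3h2bb-ps and Hist1h2aj had no promoter entry.

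Of the 68 members 22 reached a mean of 1 CPM, 46 stayed below it, 21 were below 0.1 CPM and 24 had counts in all libraries. The 7 members with 0 counts in all 50 libraries were Hist1h2bq, Hist1h2br, Hist2h2aa1, Hist2h2aa2, Hist2h2bb, Hist2h3b and Hist2h3c1. Between 88.7 and 100% of the runs of 50 bases in these 7 genes occur in another gene, so that no expression and reads left uncounted cannot be told apart. The 12 most abundant members held 84.1% of the member counts. Over the 50 libraries, the linker histone genes Hist1h1c and Hist1h1e had means of 57.4 and 11.6 CPM. The H2A gene Hist3h2a had 32.4 CPM, and the H2B genes Hist1h2bc, Hist1h2be, Hist1h2bg, Hist2h2be and Hist3h2ba had 25.2, 19.9, 15.9, 9.53 and 5.60 CPM. The H4 genes Hist1h4d, Hist4h4, Hist2h4 and Hist1h4i had 17.9, 13.1, 6.00 and 5.65 CPM. Per kilobase of counted exon the order differed, and Hist1h4d (45.4 CPM per kilobase) stood above Hist1h1c (36.8), Hist1h2bc (34.2) and Hist1h2bg (33.3).

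Close copies and overlaps limit these values. Of the 68 members 64 share at least one run of 50 bases with another gene and 36 share more than 50% of such runs. Hist1h3e shared 73.4% of its runs, mostly with Hist1h3f, Hist1h2al 67.6%, Hist1h2bg 49.7%, and Hist1h1e 32%, mostly with Hist1h2be, whose annotated exons overlap it. Hist3h2a shared 31.5%, mostly with Trim17 on the same strand. Hist1h1b and Hist2h2be shared 0%. Reads from a shared run could have been assigned to the copy or left uncounted, so the values of members that share runs are uncertain. In 26 members exon bases are shared with another gene, and whether counting used strand is not known from the labels or notes.

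The summed level of all members ran from 144.1 to 457.8 CPM per library. In controls of the constitutive model it was 222 ± 13.1 CPM at P0, 168 ± 17.6 at 2 weeks and 407 ± 46.5 at 6 weeks (SD, n = 4 each). In controls of the inducible model it was 244 ± 14.5 CPM at E16 (n = 4), 317 ± 41.1 at P0 (n = 3), 243 ± 63.1 at 2 weeks and 388 ± 39.2 at 6 weeks (n = 4 each). The controls at 6 weeks were thus the highest in both models, and all of their libraries exceeded all control libraries of the other ages in the same model. From 2 to 6 weeks the summed level of 30 DNA replication genes ran the other way, and in the earlier steps the means of both sums moved in the same direction. The replication genes had means of 1653, 675 and 373 CPM in constitutive controls at P0, 2 weeks and 6 weeks, and 1673, 1810, 426 and 368 CPM in inducible controls from E16 to 6 weeks.

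**Figure D2:**
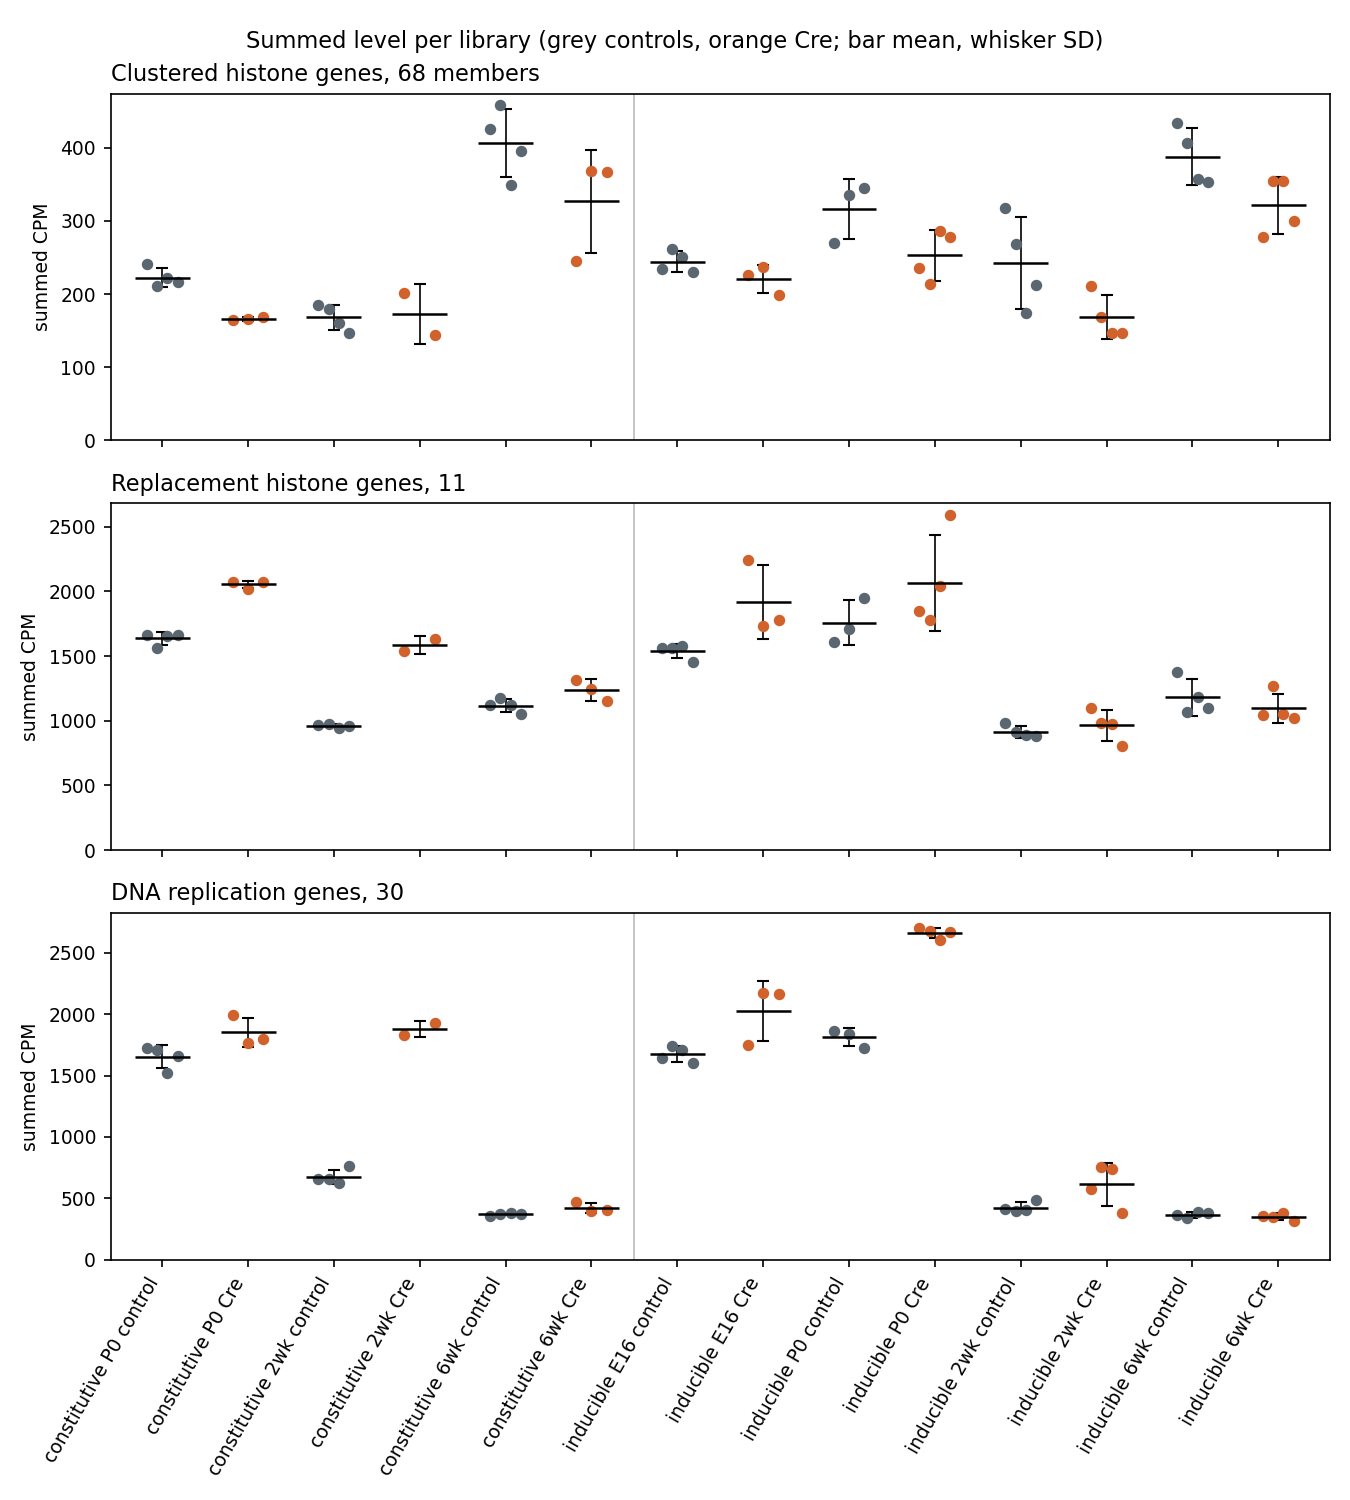
Summed CPM per library in each of the 14 groups for the 68 clustered histone genes, 11 replacement histone genes and 30 DNA replication genes (grey controls, orange animals with Cre, bar mean, whisker SD). Control sums of the clustered genes were highest at 6 weeks (407 and 388 CPM), where those of the replication genes were lowest (373 and 368 CPM).

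A filter on low counts left 26 to 35 members for testing in each of 15 comparisons, 39 in at least one and 20 in all, and 29 members were too low throughout. A member is said to rise or fall only where its adjusted p in edgeR's quasi-likelihood test was below 0.05, and ± beside a log2 change is its standard error. The first comparisons concern age in controls, where the mice carried no Cre. The steps of one model share the 2-week controls, and the knockout comparisons share the controls of their age, so values are set side by side without a test between them. The models share no library.

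From P0 to 2 weeks, 9 of 26 tested members rose and 7 fell in constitutive controls. Of all tested genes 63.3% were called there, 26.7% as rises and 36.6% as falls. In inducible controls 8 of 32 rose and 13 fell (54.7% of all genes were called, 21.9% as rises and 32.7% as falls). In both models the same 7 members rose, Hist1h2ac, Hist1h2ae, Hist1h2be, Hist1h2bg, Hist1h3e, Hist1h4h and Hist3h2a, which is 77.8% of the first and 87.5% of the second list. Another 7 fell in both, Hist1h1b, Hist1h1c, Hist1h1e, Hist1h2bc, Hist1h4d, Hist1h4i and Hist3h2ba, which is 100% and 53.8%, and 0 members moved in opposite directions. How many of all genes were called alike in both models was not counted, here or from 2 to 6 weeks. The overlaps can therefore not be read as particular to the histone genes. The median log2 change of the members was 0.69 and 0.09, against -0.07 and -0.06 over all tested genes. With library totals in place of TMM scaling 6 rose and 9 fell in the constitutive and 4 and 13 in the inducible model. The rises in both models were then 3, Hist1h2ac, Hist1h2be and Hist1h2bg, and the falls in both were 9. Without the filter on low counts 7 rises and 4 falls were in both.

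Markers of other cells fell in the same step. Mean summed levels went from 1118 to 3.40 CPM for neuron markers (8 of 8 fell), from 807 to 5.71 CPM for erythroid markers (6 of 6 tested) and from 1033 to 42.4 CPM for monocyte markers (7 of 8) in constitutive controls. In inducible controls they went from 551 to 4.53 CPM (8 of 8), 504 to 7.88 CPM (5 of 5 tested) and 3739 to 36.8 CPM (8 of 8), and neutrophil lineage markers from 2833 to 177 CPM (12 of 12 tested). Homeostatic microglia markers rose, 12 of 12 and 11 of 12. The part of these cells in the histone changes, that of Hist3h2ba among them, was not tested.

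Among the H2A and H2B genes, Hist1h2bg held 3.22, 4.47, 4.66 and 5.20 CPM in constitutive controls at P0 and 16.7, 18.7, 19.3 and 21.8 CPM at 2 weeks. All libraries at 2 weeks were above those at P0 (log2 change 2.41 ± 0.21, edgeR adjusted p = 2.90e-07), and 59.3% of all tested genes did not overlap either. In inducible controls it went from 6.76, 9.16 and 11.1 CPM to 15.7, 21.4, 29.7 and 34.2 CPM (1.71 ± 0.27, adjusted p = 2.26e-04). Hist1h2ac, an H2A gene, rose by 2.04 ± 0.39 and 1.56 ± 0.44 on the log2 scale (adjusted p = 3.50e-04 and 0.00951). Its neighbour Hist1h2bc, an H2B gene that starts 251 bases away on the opposite strand, fell from 32.8 to 49.2 CPM at P0 to 7.16 to 15.1 CPM at 2 weeks in constitutive controls (log2 change -1.56 ± 0.21, adjusted p = 1.91e-05). In inducible controls it fell from 31.4 to 47.1 to 15.3 to 26.8 CPM (log2 change -0.76). Hist1h2bb, an H2B gene near 1 CPM, rose in constitutive controls (1.72 ± 0.45).

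The largest falls differed in product. Hist1h1b, a linker histone gene, fell in inducible controls from 9.94, 11.9 and 12.1 CPM at P0 to 0.369, 0.394, 1.28 and 1.98 CPM at 2 weeks (log2 change -3.27 ± 0.50, edgeR adjusted p = 1.81e-04). The H1 gene Hist1h1d and the H2B gene Hist1h2bj fell with it in the inducible model (-2.53 ± 0.57 and -2.49 ± 0.70, adjusted p = 0.00238 and 0.00938). In constitutive controls the largest fall was that of the H2B gene Hist3h2ba, from 6.76, 9.02, 9.51 and 14.1 CPM to 1.26, 1.54, 1.73 and 2.03 CPM (-2.28 ± 0.31, adjusted p = 1.61e-05). It was called in the inducible model too (-1.32). Hist1h3e, an H3 gene, rose there by 2.17 ± 0.34 (adjusted p = 1.84e-04), and Hist2h2be, an H2B gene, fell (-1.41). When each library was left out in turn, 10 of the 16 constitutive and 11 of the 21 inducible calls held in every fit.

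From 2 to 6 weeks nearly all calls were rises. In constitutive controls 16 of 28 members rose and 1 fell (17.7% of all genes were called, 8.8% as rises and 8.93% as falls), and in inducible controls 9 of 29 rose and 0 fell (17.1%, 8.13% as rises and 8.98% as falls). The members' median log2 change was 1.09 and 0.55, with medians near 0 over all genes. In inducible controls neutrophil lineage markers moved with this step, from a mean sum of 177 to 1037 CPM (9 of 10 tested rose and 1 fell), and 3 of 6 tested monocyte markers rose. In constitutive controls 0 of 10 neutrophil lineage markers were called, and 1 of 7 monocyte markers rose. Their part was not tested. The 8 that rose in both, 50% and 88.9% of the lists, were the linker gene Hist1h1c, the H2B gene Hist1h2be, the H3 gene Hist1h3d and the H4 genes Hist1h4c, Hist1h4d, Hist1h4i, Hist2h4 and Hist4h4. Of the members with a transcript running past the stem-loop 14 of 18 rose in the constitutive and 8 of 18 in the inducible model, against 1 of 6 and 1 of 8 with a short end. Without the motif 1 of 4 rose and 1 fell, and 0 of 3 were called. Median log2 changes of the long, short and no-motif members were 1.46, 0.72 and -0.12 in the constitutive model. In the inducible model they were 0.69, 0.51 and 0.097. Members with a short end are scarcer, and the part of level in these calls was not tested.

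Hist4h4, an H4 gene outside the main clusters (chromosome 6, 136801553 to 136804415, minus strand), held 3.58, 4.37, 5.65 and 6.86 CPM in constitutive controls at 2 weeks and 21.7, 26.6, 39.1 and 41.6 CPM at 6 weeks. The groups did not overlap, as was so for 22.1% of all tested genes (log2 change 2.60 ± 0.25, edgeR adjusted p = 8.71e-06). In inducible controls it held 4.58, 5.04, 10.3 and 11.7 CPM and then 21.1, 25.7, 27.4 and 38.2 CPM (1.76 ± 0.30, adjusted p = 0.00207). Hist1h4c, another H4 gene, rose by 2.28 ± 0.36 and 1.55 ± 0.43, and Hist2h4 by 1.79 and 1.35 ± 0.31 on the log2 scale. Hist1h1c, the most abundant member (chromosome 13, 23738808 to 23740367, plus strand), went from 22.8, 28.4, 29.4 and 29.8 to 59.8, 88.3, 99.1 and 126 CPM in constitutive controls (log2 change 1.72). Hist1h2be went from 14.7 ± 2.64 to 42.6 ± 3.89 CPM (SD, n = 4) in the same groups (1.51), and the H1 gene Hist1h1d rose by 2.25 ± 0.53.

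The single fall was that of Hist1h1b (chromosome 13, 21779883 to 21780625, minus strand), with 136 counts in the 4 constitutive controls at 2 weeks and 3 counts in those at 6 weeks. The ratio of their levels was 57.7, with a 95% counting interval of 19.3 to 283, and the edgeR adjusted p was 1.31e-05. At 6 weeks its level was 0, 0.0389, 0.0399 and 0.0611 CPM in constitutive and 0, 0.142, 0.147 and 0.210 CPM in inducible controls. In these comparisons 15 of 17 constitutive and 6 of 9 inducible calls held in every fit with a library left out.

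From E16 to P0 in inducible controls, 0 of 32 members were called (0.058% of all genes were, 0.0464% as rises and 0.0116% as falls), with a median log2 change of 0.60. At an unadjusted p under 0.05 there were 9 members, and DESeq2 called 4 rises (243 rises and 188 falls over all genes). The 3 smallest p-values, none passing, belonged to Hist4h4 (1.64, edgeR adjusted p = 0.147), Hist1h1e (0.83, 0.170) and Hist1h1b (0.98, 0.209). Hist4h4 held 1.23, 1.31, 2.08 and 2.20 CPM at E16 and 4.45, 5.54 and 6.15 CPM at P0, without overlap. The groups of 10.9% of all tested genes did not overlap in this step.

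**Figure D3:**
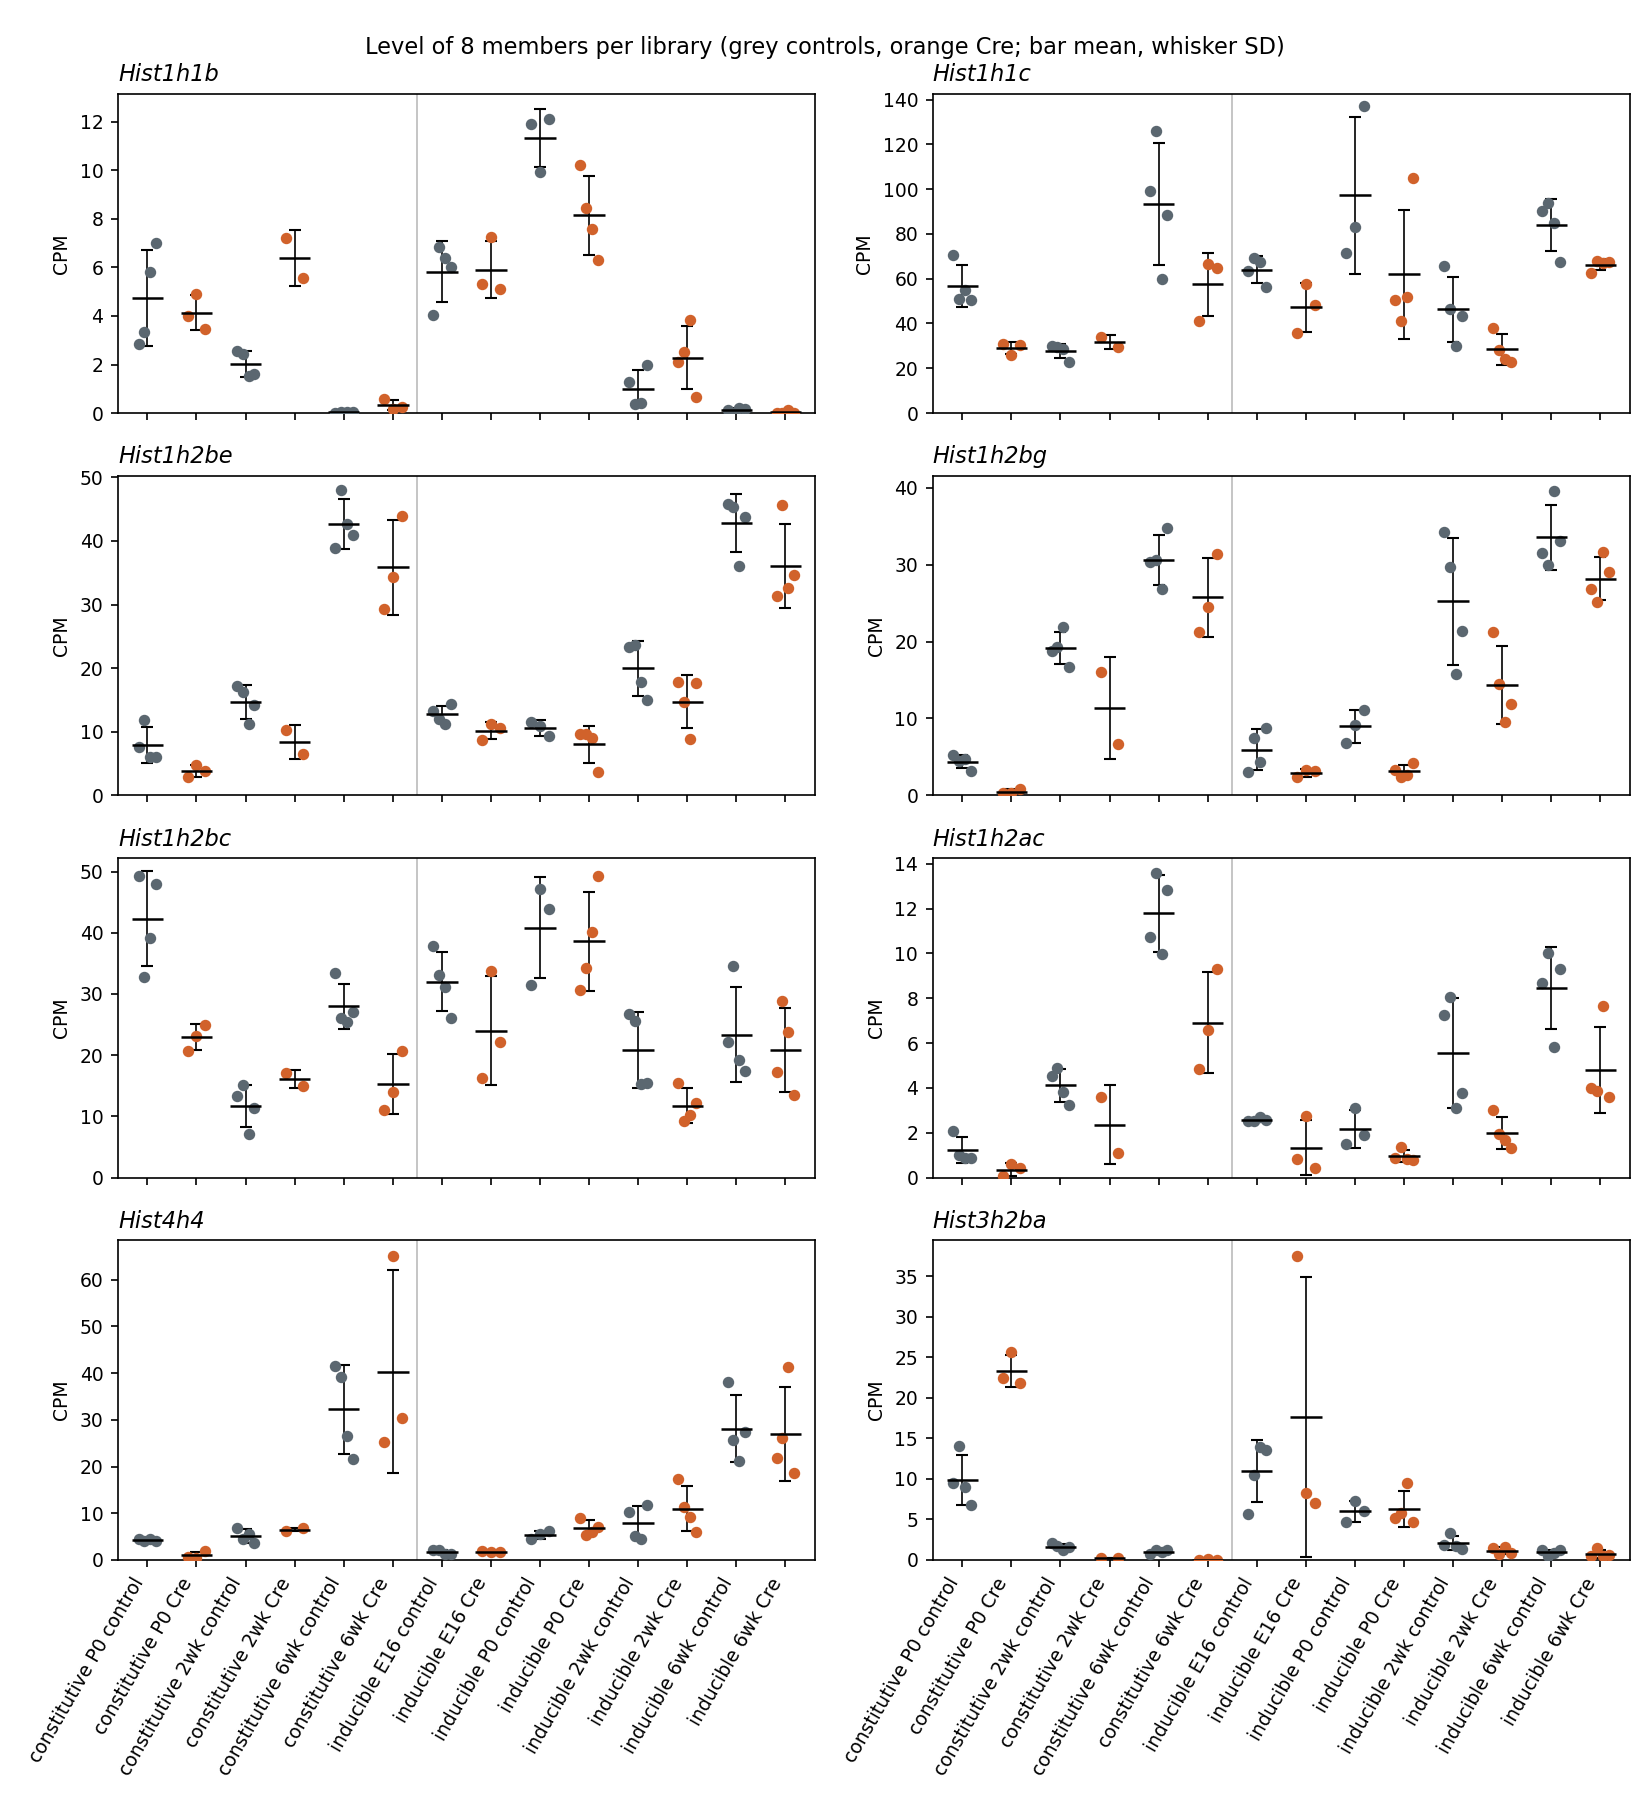
Level in CPM of 8 members in each library of the 14 groups (grey controls, orange animals with Cre, bar mean, whisker SD; linear axes from 0). Hist4h4 and Hist1h2be are highest at 6 weeks, Hist1h1b is lowest there, and Hist1h2bg is lowest in constitutive P0 knockouts (0.294 to 0.827 CPM).

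The comparison of constitutive knockouts with controls at P0 asked how the sorted cells of animals with Cre differed from those of controls at birth. Of 26 tested members 10 fell and 1 rose, where 41.6% of all tested genes were called, 20.2% as falls and 21.4% as rises. The median log2 change was -1.01 over the members and 0.04 over all genes, and 24 of 26 were negative. With library totals in place of TMM, 8 fell and 1 rose, and Hist1h1e and Hist1h2ac lost their calls, while over all genes 3942 rises and 3726 falls became 6427 and 2037. The summed level was 164 to 169 CPM, below the 211 to 241 CPM of the controls. Of the tested members with a long transcript end 8 of 16 fell, against 1 of 5 with a short end and 1 of 5 without the motif. Their median log2 changes were -1.37, -0.82 and -0.56. The order of long and short members varied between knockout comparisons. Their medians were -0.15 and -0.23 in constitutive knockouts at 2 weeks and -0.36 and -0.57 at 6 weeks. In inducible knockouts they were -0.32 and -0.48 at 6 weeks, while long members were the lower at E16, P0 and 2 weeks. Members with a short end are scarcer, and the part of level was not tested.

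Hist1h2bg (chromosome 13, 23571396 to 23572013, plus strand) held 0.294, 0.341 and 0.827 CPM in the 3 knockouts and 3.22 to 5.20 CPM in the controls. This was the largest fall among members with at least 1 CPM in these controls, 11.3-fold (log2 change -3.50 ± 0.48, edgeR adjusted p = 2.56e-04). Among the other H2B genes, Hist1h2bc fell from 32.8, 39.2, 48.01 and 49.2 to 20.7, 23.1 and 24.9 CPM (-1.25 ± 0.20, adjusted p = 5.61e-04) and Hist1h2be by 1.41 ± 0.33 on the log2 scale (adjusted p = 0.00576). The H2A gene Hist1h2ac held 0.0588, 0.413 and 0.613 CPM against 0.885 to 2.08 CPM (-2.12 ± 0.72, adjusted p = 0.0358). Hist1h2ad, also H2A, had 2 counts in the knockouts and 32 in the controls, a ratio of 13.1 with a 95% counting interval of 3.34 to 113. The abundant Hist3h2a overlapped with its controls, at 21.3, 25.7 and 27.2 against 19.9 to 25.3 CPM.

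Both measured H3 genes above 1 CPM fell. Hist1h3e held 0.177, 0.341 and 0.530 CPM against 1.55, 2.41, 2.71 and 3.82 CPM (log2 change -3.23 ± 0.56, edgeR adjusted p = 0.00106), and Hist1h3d 0.136, 0.588 and 0.591 CPM against 2.09, 2.27, 2.33 and 2.498 CPM (-2.69 ± 0.55, adjusted p = 0.00269). Of the H4 genes only Hist4h4 was called, at 0.341, 0.706 and 1.89 CPM against 4.10, 4.10, 4.48 and 4.58 CPM (-2.46 ± 0.52, adjusted p = 0.00343). Hist1h4d held 18.1, 19.6 and 23.4 CPM against 16.2 to 24.0 CPM. The linker gene Hist1h1c fell from 50.7, 50.9, 54.9 and 70.7 to 25.8, 30.2 and 30.9 CPM (-1.33 ± 0.18, adjusted p = 2.31e-04), and Hist1h1e fell by 0.90 ± 0.29 (adjusted p = 0.0257). Hist1h1b did not pass, at 3.48 to 4.91 against 2.85 to 6.997 CPM.

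The 1 rise was Hist3h2ba (chromosome 11, 58948920 to 58949533, plus strand), at 21.8, 22.5 and 25.6 CPM in knockouts and 6.76, 9.02, 9.51 and 14.1 CPM in controls (log2 change 0.89 ± 0.24, edgeR adjusted p = 0.0113). Without the library labelled knockout 68, 7 members fell and 1 rose, and Hist1h2bg, Hist1h3e and Hist4h4 stayed called, with log2 changes between -3.23 and -4.13, -2.93 and -3.68, and -2.06 and -3.38 over all fits that leave out a library. Without knockout 73 there were also 7 falls and 1 rise, and without knockout 76 there were 9 and 1. Hist1h2ad was called in none of the 7 such fits: the filter on low counts removed it from 6, and in the other fit its log2 change was -3.35 (adjusted p = 0.0590). Hist1h2ac lost its call without knockout 68, 73 or 76 or control 69 (adjusted p up to 0.106), and Hist1h1e lost it without knockout 68 or 73 or control 71 (up to 0.102).

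Markers of other cells moved with this comparison. The summed level of 12 homeostatic microglia markers was 1816 to 5178 CPM against 25546 to 29494 CPM in controls, and 12 of 12 fell. Neutrophil lineage markers summed to 7934 to 12177 against 726 to 1710 CPM (14 of 14 rose), neuron markers to 2958 to 3622 against 824 to 1789 CPM (8 of 8 rose) and erythroid markers to 2188 to 2922 against 587 to 1072 CPM (7 of 7 rose). No marker on these lists was at 0 throughout. Their part in the histone results was not tested.

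At 2 weeks the constitutive comparison, with 2 knockouts, went both ways. Of 31 tested members 5 rose and 4 fell, where 42.1% of all genes were called (24.4% rises and 17.8% falls), and the median log2 change was 0.03 over the members and 0.00 over all genes. Hist1h1b held 5.57 and 7.20 CPM in knockouts and 1.51, 1.62, 2.42 and 2.54 CPM in controls (log2 change 1.64 ± 0.34, edgeR adjusted p = 0.00354). The H4 gene Hist1h4d held 15.8 and 19.9 CPM against 7.56, 8.22, 9.498 and 10.5 CPM (0.98 ± 0.21, adjusted p = 0.00424). Hist2h2be held 10.8 and 12.96 CPM against 5.18 to 8.21 CPM (0.97 ± 0.27, adjusted p = 0.0170), and Hist1h1e 8.14 and 12.1 CPM against 4.21 to 6.99 CPM (0.77 ± 0.27, adjusted p = 0.0456). The fifth rise was Hist1h3i, an H3 gene below 1 CPM.

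The falls at 2 weeks were in H2A and H2B genes. Hist3h2ba held 0.265 and 0.286 CPM in knockouts against 1.26, 1.54, 1.73 and 2.03 CPM (log2 change -2.55 ± 0.56, edgeR adjusted p = 0.00505), the opposite direction to P0. Hist3h2a (chromosome 11, 58954685 to 58956830, plus strand) held 11.5 and 19.8 CPM against 26.3, 29.3, 29.4 and 30.3 CPM (-0.91 ± 0.20, adjusted p = 0.00525), and Hist1h2be 6.46 and 10.3 CPM against 11.2 to 17.1 CPM (-0.83 ± 0.25, adjusted p = 0.0238). The pseudogene Hist1h2al had 1 count in the knockouts and 145 in the controls, of which 1 library had 0, a ratio of 89.1 with a 95% counting interval of 15.7 to 3540. Hist1h2bg was lower without passing, at 6.64 and 16.1 against 16.7 to 21.8 CPM (-0.80, adjusted p = 0.0506). Hist1h3e likewise held 0.752 and 2.52 against 2.44 to 6.25 CPM (-1.42, adjusted p = 0.0622).

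Only Hist1h1b, Hist1h4d, Hist3h2a and Hist3h2ba held their calls in every fit with a library left out. Without knockout 89, whose Hdac2 was within the controls, 4 members rose and 2 fell, without knockout 80 there were 3 rises and 7 falls, and without control 78 there were 3 rises and 2 falls. The lone remaining knockout is then assumed to vary like the controls. In the same libraries neutrophil lineage markers summed to 18939 and 54282 CPM in knockouts and 121 to 888 CPM in controls (14 of 14 rose), monocyte markers to 1980 and 4822 against 18.6 to 80.3 CPM (8 of 8 rose), and homeostatic microglia markers to 17836 and 27483 against 69105 to 76498 CPM (11 of 12 fell). DNA replication genes summed to 1832 and 1925 against 623 to 763 CPM. The part of either in the histone results was not tested.

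At 6 weeks 3 of 27 members fell and 0 rose in constitutive knockouts (12% of all genes were called, 5.24% as falls, and the members' median log2 change was -0.43). Hist3h2ba was again lower, with 1 count in the 3 knockouts and 87 in the 4 controls, at 0, 0 and 0.0558 CPM against 0.688, 0.973, 1.16 and 1.28 CPM. The ratio was 47.6 with a 95% counting interval of 8.32 to 1900 (edgeR adjusted p = 0.00213). Hist1h3e held 8.03, 8.38 and 12.04 CPM against 15.4, 18.3, 19.1 and 20.1 CPM (log2 change -0.99 ± 0.20, adjusted p = 0.00725). Hist1h2bc held 11.1, 14.0 and 20.8 CPM against 25.5 to 33.4 CPM (-0.92 ± 0.21, adjusted p = 0.0152). None of these 3 overlapped between the groups, nor did 22.7% of all tested genes.

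Hist1h2ac was lower at 6 weeks without passing, at 4.85, 6.58 and 9.30 against 9.96 to 13.6 CPM (log2 change -0.81, edgeR adjusted p = 0.0573). Hist4h4 and Hist1h2bg, low at P0, overlapped with their controls, at 25.3, 30.4 and 65.2 against 21.7 to 41.6 CPM and 21.3, 24.6 and 31.4 against 26.8 to 34.7 CPM. Hist1h2bc lost its call without the library labelled knockout 380, without the knockout in which it held 11.1 CPM or without the control in which it held 33.4 CPM (adjusted p up to 0.0699), which left 2 falls without knockout 380. Without the control in which Hist1h2bc held 25.5 CPM there were 5 falls. The summed neutrophil lineage markers were 2327 to 5201 CPM in knockouts against 425 to 729 CPM in their controls (9 of 10 tested rose), and those of homeostatic microglia 39220 to 54323 against 65725 to 68944 CPM (5 of 12 fell). Their part was not tested.

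In the inducible model fewer members passed. At E16 0 of 30 were called, as were 0 of all genes (0%), with 2 members at an unadjusted p under 0.05. DESeq2 called 0 members, while over all genes it called 345 rises and 335 falls. The median log2 change was -0.25 over the members and 0.12 over all genes. The smallest p-values, none passing, were those of Hist1h1c (-0.53, edgeR adjusted p = 0.341), Hist1h2bg (-1.11, 0.352) and the H1 gene Hist1h1a (1.06, 0.408). Hist1h2bg held 2.35, 3.13 and 3.25 CPM in knockouts and 3.10, 4.35, 7.51 and 8.78 CPM in controls. Hist3h2ba held 37.6 CPM in the library labelled knockout 1, 6.96 and 8.30 CPM in the other knockouts and 5.71 to 14.0 CPM in controls. In that library erythroid markers summed to 13344 CPM and neuron markers to 3170 CPM, against 1157 to 1542 and 367 to 1117 CPM in controls. Without it 0 members were called, while over all 17973 tested genes 415 rose and 223 fell.

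At P0 1 of 35 members fell in inducible knockouts and 0 rose (10.4% of all genes were called, 6.81% as rises and 3.56% as falls, and the members' median log2 change was -0.23). This was Hist1h2bg, at 2.37, 2.69, 3.30 and 4.16 CPM against 6.76, 9.16 and 11.1 CPM without overlap (log2 change -1.49 ± 0.31, edgeR adjusted p = 0.0128). The groups of 26.1% of all tested genes did not overlap here. Hist1h2bg also fell in the constitutive model at this age, in libraries that share no animal. There 20.2% of all genes fell, and how many of all genes fell in both models was not counted. The adjusted p of Hist1h2bg was 0.0502 without control 55, and 2 members fell without knockout 57. Hist1h3e held 0.379, 0.802, 0.954 and 1.37 against 2.09, 2.20 and 2.24 CPM without passing (-1.30, adjusted p = 0.114), and Hist1h2ac 0.795, 0.812, 0.867 and 1.35 against 1.48, 1.90 and 3.12 CPM (-1.15, adjusted p = 0.128). Hist4h4 held 5.39, 6.07, 7.12 and 9.06 against 4.45 to 6.15 CPM. Homeostatic microglia markers summed to 12793 to 17356 against 24843 to 28947 CPM (7 of 12 fell), and 0 of 14 neutrophil lineage, 0 of 8 neuron and 0 of 7 erythroid markers were called. Of the monocyte markers 1 rose and 1 fell, as of the vascular markers, and 1 lymphocyte, 1 astrocyte and 1 oligodendrocyte lineage marker fell. Their part was not tested.

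At 2 weeks 4 of 28 members fell in inducible knockouts and 0 rose, where 2.25% of all genes were called, 1.11% as rises and 1.13% as falls. The median log2 change of the members was -0.55. Hist1h3e held 1.40, 1.94, 2.46 and 3.37 CPM against 5.57, 6.87, 9.23 and 12.2 CPM (log2 change -1.94 ± 0.30, edgeR adjusted p = 0.00300). Hist3h2a held 26.5, 27.2, 28.1 and 29.3 CPM against 36.6, 42.4, 46.8 and 48.8 CPM (-0.72 ± 0.11, adjusted p = 0.00310). It was the 1 member that fell in both models at this age, 25% of either list of 4. Of all genes 17.8% fell in the constitutive and 1.13% in the inducible model, and how many fell in both was not counted. Hist1h2ac held 1.34, 1.67, 1.95 and 3.01 CPM against 3.11, 3.79, 7.24 and 8.06 CPM (-1.53 ± 0.34, adjusted p = 0.0273).

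The fourth was Hist1h2bc, at 9.17, 10.2, 12.2 and 15.5 CPM against 15.3, 15.5, 25.5 and 26.8 CPM (log2 change -0.88 ± 0.21, edgeR adjusted p = 0.0435). Its groups overlapped by 1 library, and those of the other 3 did not overlap, as was so for 8.58% of all tested genes. Hist1h3e and Hist3h2a held their calls in every fit with a library left out. Hist1h2ac and Hist1h2bc lost theirs without knockout 13 or 16 or control 1 or 2, which left 2 falls, with adjusted p up to 0.105 and 0.155, and Hist1h2bc lost its call with library totals. Homeostatic microglia markers summed to 58253 to 68761 against 68746 to 71716 CPM (1 of 12 fell), and neutrophil lineage markers to 160 to 377.2 against 144 to 232 CPM (2 of 11 tested rose).

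At 6 weeks 0 of 30 members were called in the inducible model, as were 0.0633% of all genes (0.0492% rises and 0.0141% falls), with 3 members at an unadjusted p under 0.05. DESeq2 called 0 members, and over all genes 33 rises and 16 falls. The log2 change was negative in 28 of the 30, with a median of -0.32. The smallest p-values, none passing, were those of Hist1h1c (-0.37, edgeR adjusted p = 0.872), Hist1h2ac (-0.85, 0.895) and Hist3h2a (-0.35, 0.999). Hist1h1c held 62.8, 67.1, 67.6 and 67.9 CPM in knockouts and 67.6, 84.7, 90.4 and 93.6 CPM in controls.

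**Figure D4:**
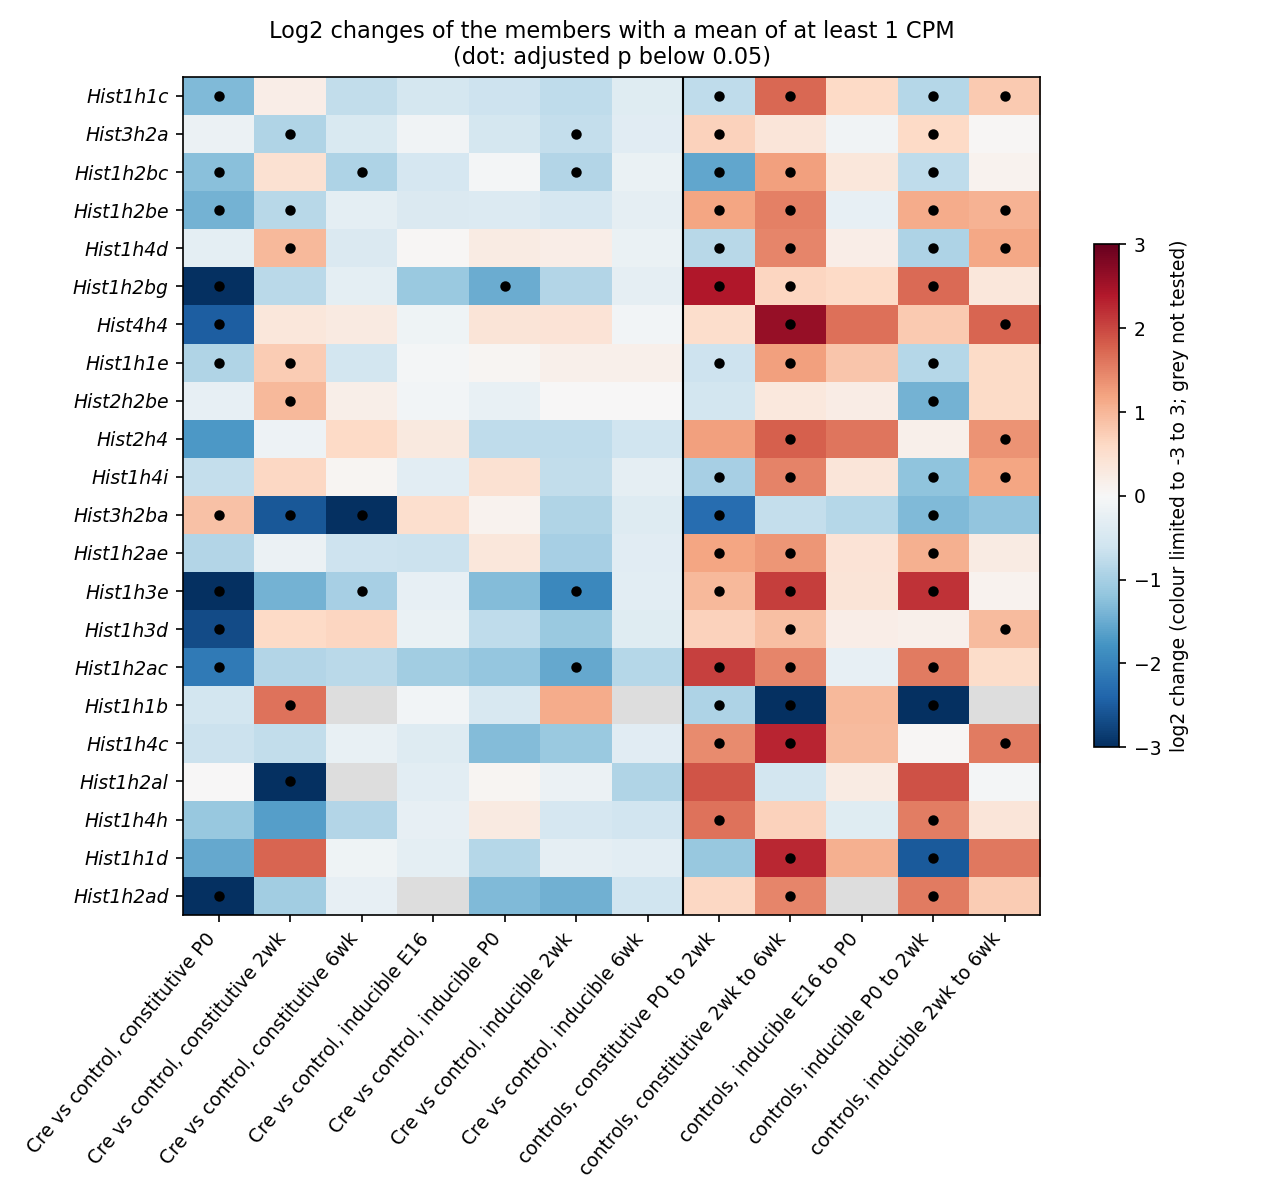
Log2 change of the 22 members with a mean of at least 1 CPM in the 7 knockout comparisons (left of the line) and 5 age comparisons of controls (right); blue is lower and red higher in the animals with Cre or at the later age, colour stops at 3 either way, grey was not tested and a dot marks an adjusted p below 0.05. Blue dots gather in the column of constitutive P0 knockouts (10 of the 22 fell) and red dots in the columns from 2 to 6 weeks.

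Whether the knockout effect differed between the models was tested at each shared age as the constitutive minus the inducible log2 change. At P0 5 of 33 members passed, all more negative in the constitutive model. Of all genes 30.9% were called, 14% as more positive and 16.9% as more negative. These 5 members can therefore not be read as particular to the histone genes. They were Hist4h4 (difference -2.80 ± 0.59, edgeR adjusted p = 0.00265), Hist1h2bc (-1.15 ± 0.29, 0.00821), Hist1h2bg (-1.96 ± 0.54, 0.0126), the H4 gene Hist1h4i (-1.14 ± 0.34, 0.0192) and the H4 gene Hist1h4j, which was below 1 CPM (-4.17 ± 1.14, 0.0126). Hist1h4j had a mean of 0.0227 CPM in constitutive P0 knockouts, so its difference rests on a group near 0, without a counting interval. Hist4h4 and Hist1h2bc passed in every fit with a library left out. Without constitutive knockout 68 there were 4 passing members, and Hist1h4i no longer passed. Without constitutive knockout 73 there were 3 passing members, without constitutive knockout 76 there were 6, and without inducible knockout 57 there were 8. With library totals 1 member was more positive and 4 more negative.

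At 2 weeks 4 of 33 members passed (31.2% of all genes, 16.6% as more positive and 14.7% as more negative). Hist1h2bc (1.32 ± 0.37, edgeR adjusted p = 0.0108), Hist1h1c (0.95 ± 0.30, 0.0241) and Hist1h3d (1.70 ± 0.55, 0.0248) were more positive in the constitutive model, and the pseudogene Hist1h2al was more negative (-5.89 ± 1.69, 0.0164). Hist1h2al had 1 count in the constitutive knockouts of this age, so its difference also rests on a group near 0. For Hist1h2bc the underlying levels were 15.04 and 17.1 CPM in constitutive knockouts against 7.16 to 15.1 CPM, and 9.17 to 15.5 against 15.3 to 26.8 CPM in inducible ones. Without constitutive knockout 80 or 89 there were 1 and 2 passing members. At 6 weeks 1 of 30 members passed (4.95% of all genes, 2.54% as more positive and 2.41% as more negative). This was Hist3h2ba, which was more negative in the constitutive model (-4.87 ± 1.05, edgeR adjusted p = 0.00862). It had 1 count in the constitutive knockouts of this age, so the difference rests on a group near 0. Without constitutive knockout 380 there was still 1 passing member, and without inducible knockout 4 there were 2. In inducible animals at 6 weeks Hist3h2ba held 0.472, 0.479, 0.595 and 1.51 CPM against 0.515, 0.894, 1.18 and 1.21 CPM.

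Other genes of the histone supply were read beside the clustered ones. The 11 replacement histone genes, such as H3f3a and H3f3b for a replacement H3 and H2afz for an H2A variant, summed to group means of 916 to 2065 CPM. In constitutive knockouts at 2 weeks 9 of 10 tested rose and 0 fell, with Cenpa, the centromeric H3, at 2.31, the H2A variant H2afj at 1.795 and H3f3a at 1.47 on the log2 scale. At P0 4 of 11 rose and 1 fell in the constitutive model, led by H2afy2 (1.25) and the linker gene H1fx (1.77), and 4 of 11 rose in the inducible model, among them H2afj (1.06), H2afz (0.69) and H2afv (0.66). Of all genes 24.4% rose in constitutive knockouts at 2 weeks. At P0 21.4% of all genes rose and 20.2% fell in the constitutive model, and 6.81% rose in the inducible model. From P0 to 2 weeks 10 of 11 replacement genes fell in constitutive and 11 of 11 in inducible controls, where 36.6% and 32.7% of all genes fell. From 2 to 6 weeks 1 of 9 rose and 4 fell in each model, and the rise was H3f3b, from 480 to 771 CPM (log2 change 0.65) and from 517 to 846 CPM (0.64).

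The 30 DNA replication genes and 20 mitosis genes did not share the histone rise from 2 to 6 weeks. In that step 0 rose and 20 of 30 replication genes and 20 of 20 mitosis genes fell in constitutive controls, and 0 rose and 5 and 20 fell in inducible controls. In constitutive knockouts at 2 weeks all 30 and all 20 rose, with Hist1h1b among the histone members that rose and Hist3h2a and Hist3h2ba among those that fell. In constitutive knockouts at P0 1 replication gene rose and 7 fell, where 21.4% of all genes rose and 20.2% fell. In inducible knockouts at P0 12 rose and 0 fell, where 6.81% of all genes rose and 3.56% fell.

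Of 16 genes listed as histone mRNA factors, 5 rose and 1 fell in constitutive knockouts at 2 weeks, a share near that of all genes there (42.1% called, 24.4% as rises). Slbp, the stem-loop binding protein gene, went from 69.3 ± 6.40 (n = 4) to 134 ± 10.1 CPM (SD, n = 2; log2 change 0.96 ± 0.14, edgeR adjusted p = 4.59e-04), and Eri1, an exonuclease gene of the stem-loop, changed by 0.94. At P0 2 of 16 fell in the constitutive model, and 3 rose in the inducible model, with Eri1 at 0.75. Of 13 histone chaperones 6 rose and 1 fell in constitutive knockouts at 2 weeks, with Asf1b at 3.01, Chaf1b at 2.21 and Nasp at 1.10, and 6 rose in inducible knockouts at P0, with Chaf1b at 1.21, Asf1b at 0.99 and Nasp at 0.94. At P0 in constitutive knockouts 0 rose and 1 fell. At that age 21.4% of all genes rose and 20.2% fell in the constitutive model, and 6.81% rose in the inducible model.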

How the data were processed

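The authors deposited a table of counts and a table of CPM for 48526 genes in 50 libraries. Their notes name CASAVA 1.8.2, STAR 2.5.2b, featureCounts 1.5.1 of Subread, limma 3.28.21 and GRCm38, per the submitters' processing notes. Per the labels' protocols, RNA of sorted microglia was amplified with a SMARTer Ultra Low Input kit. The annotation and the strand setting used for counting are not given in the sources used here. The deposited CPM was checked to equal count over library total, and the deposited log2 table was not used. Symbols, exons and transcripts came from GENCODE vM21, where 48058 genes matched, and promoters from RefSeq. Library totals were 11050277 to 29651179 counts, and replicate pairs differed by far more than counting error (chi-square per gene 9.27 to 192.5).

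Groups came from the labels. Each comparison was fitted on the groups it sets against each other with edgeR 4.0.16 under R 4.3.3: filterByExpr, TMM, robust quasi-likelihood fit, Benjamini-Hochberg adjustment over all genes tested, threshold 0.05. The code was tested on simulated data. An interaction is the constitutive minus the inducible effect at one age. The alternatives were the DESeq2 1.42.0 scaling and test, library totals, no filter, each library left out, and members that share no exon base. Sequences and summaries used Python 3.11.15 with pandas 2.3.3. Outside the interactions, ratios for genes with 1 to 3 counts in a group carry exact 95% intervals that cover counting error only.

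The members, gene lists and tests were chosen with earlier results of these data known. The rule named the 12 most abundant members in all groups, the 5 largest called rises and falls per knockout comparison and 3 per age comparison (at least 1 CPM in the higher group), the 5 smallest adjusted p per interaction, and the 3 smallest p where nothing passed. Called members under 1 CPM were named after their values were seen. Hist1h2bh and Hist1h2bm were not analysed here.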

Additional observations from a re-analysis of the deposited data

Results flagged for a closer look

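In groups of 4 libraries the highest or lowest level of the 12 most abundant members, and of the sum of all members, was compared with the spread of the other libraries (Dixon's test). Of 117 values checked 10 lay apart, and chance gives about 1 in 20. Among linker genes, Hist1h1c held 62.8 CPM in inducible 6-week knockout 12 (67.1 to 67.9 in the others) and 105 CPM in inducible P0 knockout 57 (40.9 to 51.7). Hist1h1e held 15.1 CPM in constitutive P0 control 71 (9.30 to 10.1), 8.22 CPM in inducible E16 control 6 (10.4 to 10.8) and 6.03 CPM in inducible 2-week knockout 6 (10.7 to 11.5). Among H2A and H2B genes, Hist3h2a held 52.7 CPM in inducible 6-week control 1 (44.4 to 45.7), Hist1h2be 3.67 CPM in inducible P0 knockout 57 (9.06 to 9.67), and Hist3h2ba 1.51 CPM in inducible 6-week knockout 4 (0.472 to 0.595). The H4 gene Hist1h4i held 2.16 CPM in inducible 2-week knockout 6 (1.78 to 1.84) and 13.5 CPM in inducible P0 knockout 53 (9.91 to 10.4).

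Knockout effects that differed between the models by edgeR's interaction test, as constitutive minus inducible log2 change, were those of Hist4h4 (-2.80), Hist1h2bc (-1.15), Hist1h2bg (-1.96), Hist1h4i (-1.14) and Hist1h4j (-4.17) at P0. At 2 weeks they were those of Hist1h1c (0.95), Hist1h2al (-5.89), Hist1h2bc (1.32) and Hist1h3d (1.70), and at 6 weeks that of Hist3h2ba (-4.87). Those of Hist1h4j, Hist1h2al and Hist3h2ba rest on a constitutive knockout group near 0.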

How the results depend on the processing

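No paired analysis was possible because the replicate numbers are animal numbers that name different animals, and the groups compared share fewer than 2 of them. Counts of called members moved by more than 1.5 times under few settings. DESeq2 gave 5 instead of 3 in constitutive knockouts at 6 weeks, 7 instead of 4 in inducible knockouts at 2 weeks, 4 instead of 0 from E16 to P0 and 2 instead of 1 for the interaction at 6 weeks, and no filter gave 9 instead of 4 in inducible knockouts at 2 weeks. With 1 library left out, the counts ran from 8 to 11, 5 to 10 and 2 to 5 in constitutive knockouts at P0, 2 and 6 weeks, stayed at 0 at inducible E16 and 6 weeks, and ran from 0 to 2 and 2 to 5 at inducible P0 and 2 weeks. For age they ran from 11 to 16 and 15 to 18 in constitutive controls and were 0, 15 to 21 and 6 to 12 in inducible ones, and for the interactions 3 to 8, 1 to 6 and 1 to 2. Of all calls of members, DESeq2's size factors ended 1 (Hist1h3e from P0 to 2 weeks in constitutive controls), library totals 12, no filter 10 and the DESeq2 test 2. Over the fits with a library left out, 117 of 815 repeats of a call did not pass and 7 could not be tested, 6 of them for Hist1h2ad in constitutive knockouts at P0. No call changed direction in a fit that tested it. Library totals moved the median log2 change of all genes from 0.04 to 0.40 in constitutive knockouts at P0 and from -0.07 to -0.37 and -0.06 to -0.28 from P0 to 2 weeks. Without members that share exon bases the summed control levels were 174, 106 and 284 CPM (constitutive) and 175, 242, 149 and 257 CPM (inducible). The inducible control libraries at P0 and 6 weeks then overlapped. Counting error is largest for the 46 members below 1 CPM, and 29 members passed the filter in no comparison. The part of depth and of shared sequence in this was not tested.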

Other observations

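The processed pseudogene Hist1h2al (chromosome 13, 51202727 to 51203065, minus strand) was present in some libraries of a group and near 0 in others. Its level was 0, 2.44, 2.51 and 3.281 CPM in constitutive controls at 2 weeks, 0, 0.0611, 0.0625 and 5.41 CPM at 6 weeks, and 0, 0 and 7.48 CPM in constitutive knockouts at 6 weeks. In inducible controls at 6 weeks it was 0, 0, 6.32 and 14.6 CPM. It had counts in 38 of 50 libraries, and 67.6% of its runs of 50 bases occur in another gene.

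Of the 13 pairs of an H2A and an H2B gene that start back to back, some had unequal levels. Among the pairs with an abundant member, Hist1h2ac and Hist1h2bc, 251 bases apart, had means of 4.06 and 25.2 CPM over all libraries, Hist1h2ae and Hist1h2bg, 176 bases apart, 5.39 and 15.9 CPM, and Hist2h2ac and Hist2h2be, 239 bases apart, 0.604 and 9.53 CPM. The pseudogene Hist3h2bb-ps and Hist3h2a, 173 bases apart, had 0.187 and 32.4 CPM. Where both were scarce the ratio varied as well. Hist1h2ag and Hist1h2bj had 0.233 and 0.454 CPM, and Hist1h2ak and Hist1h2bn 0.199 and 0.103 CPM. Hist1h2ah and Hist1h2bk had 0.049 and 0.261 CPM. Hist1h2ba had 0.098 CPM and Hist1h2aa 0.0012 CPM, the latter from 1 count. These pairs were chosen after their values were seen.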
